A study of Mus musculus with 5 samples.

Results

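The genes described here are 10 genes of iron and haem handling, chosen by their names among the 35478 genes that the deposited tables list: Hmox1, Fth1, Ftl1, Tfrc, Slc40a1, Slc11a2, Trf, Cp, Hpx and Ireb2. All 10 were listed in each table and all 10 passed the filter on low counts. Their expression was compared in kidneys of male mice aged 7 to 8 weeks, 11 days after unilateral ischemia-reperfusion injury (UIRI). The sample labels name the strain as C57BL/6J. The methods instead name a mixed background that includes this strain, and the difference was not resolved here. The Prdm16fl/fl group held 2 mice, which carried floxed Prdm16 without Cre, and the Ksp-Cre/Prdm16fl/fl group held 3 mice with the same floxed alleles and Ksp-Cre. Per the methods the controls were littermates, but which of these mice shared a litter is not given. Ksp-Cre drives Cre recombinase in tubular epithelial cells, so that other cell types of the tissue kept Prdm16, and the loxP sites flank exon 9. All 5 mice had the left renal pedicle clamped for 35 minutes at 38.5°C, lost the right kidney on day 10 and were killed 24 hours later. Uninjured kidneys were not analysed here, so the values compare the genotypes after injury and do not show what the injury itself changed.

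Iron reaches cells bound to transferrin (Trf), which the transferrin receptor (Tfrc) takes up, and the divalent metal transporter Slc11a2 moves it out of the endosome. Inside the cell, iron that is not used is stored in ferritin, a shell of heavy chains (Fth1), which oxidize iron, and light chains (Ftl1), which help the mineral core to form. Ferroportin (Slc40a1) exports iron, and the ferroxidase ceruloplasmin (Cp) oxidizes it for loading onto transferrin. Haem oxygenase (Hmox1) opens the haem ring and releases its iron, and hemopexin (Hpx) is a plasma protein that binds free haem. In the kidney, the proximal tubule takes back filtered iron-binding proteins, and Hmox1 and ferritin are known for their induction after tubular injury. Iron regulatory proteins, of which Ireb2 encodes one, bind hairpins called iron-responsive elements in the untranslated regions (UTRs) of some of these messengers when iron is low. Such binding blocks translation from a 5′ UTR and protects the messenger from decay when it lies in a 3′ UTR, so protein levels of ferritin and ferroportin are partly set at a step that RNA-seq does not measure.

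The iron-responsive elements found by a search for 1 strict form are shown because iron can act through them on the messengers that hold them. UTRs of the GENCODE M21 transcripts (GRCm38) were searched on the transcript strand for a bulged C, a stem of 5 bases, the loop CAGTGN and a pairing stem of 5 bases. A match was found in 4 of the 10 genes, and in 160 of 21877 protein-coding genes (0.731%). Matches lay in the 5′ UTR of Fth1, Ftl1 and Slc40a1 and in the 3′ UTR of Tfrc, which held 4. Over all protein-coding genes, 31 (0.142%) had a match in a 5′ UTR and 129 (0.59%) in a 3′ UTR. These letters were not found in the UTRs of Hmox1, Slc11a2, Trf, Cp, Hpx or Ireb2, which says nothing of elements of another form. The capitals mark the bulged C and the loop.
Fth1, 5′ UTR, chr19:9982733-9982759, plus strand: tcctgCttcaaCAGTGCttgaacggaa
Ftl1, 5′ UTR, chr7:45459780-45459806, minus strand: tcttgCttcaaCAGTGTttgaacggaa
Slc40a1, 5′ UTR, chr1:45925466-45925492, minus strand: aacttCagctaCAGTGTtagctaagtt
Tfrc, first of 4 in the 3′ UTR, chr16:32631220-32631246, plus strand: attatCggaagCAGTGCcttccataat
Tfrc, last of 4 in the 3′ UTR, chr16:32631711-32631737, plus strand: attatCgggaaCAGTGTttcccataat

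The libraries held 14939040 to 16425161 counted reads, and levels are given as TMM-scaled counts per 1000000 reads (CPM) unless stated. Prdm16 itself was counted over the whole gene at 25.3 and 20.02 CPM in the Prdm16fl/fl mice and at 17.1, 16.95 and 17.99 CPM in the Ksp-Cre/Prdm16fl/fl mice, a log2 fold change of -0.38 (adjusted p = 0.259), and these counts do not separate exon 9. Ksp-Cre/Prdm16fl/fl mouse 3 stood apart from the other two of its group. Over genes, the chi-square of its counts per degree of freedom was 74.5 against mouse 1 and 62.7 against mouse 2. Mice 1 and 2 differed from each other by 9.89. From the Prdm16fl/fl mice, mice 1 and 2 differed by 58.8 to 84.5 and mouse 3 by 101 and 111. Mouse 3 was thus about as far from its own group as mice 1 and 2 were from the other genotype. Values without mouse 3 are therefore given beside the results that rest on it. Since mouse 3 was singled out from these same counts, leaving it out narrows the spread within its group. Adjusted p-values without mouse 3 are thus likely too small and are given as description only. Markers of the kidney tubule were present in every library, with summed levels of 8084 to 30553 CPM for the proximal tubule and 2138 to 5878 CPM for the thick ascending limb and distal tubule. The labels do not state a litter or batch.

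Across the 5 libraries, the storage chains were by far the most abundant of the 10 genes. Levels between genes are compared as TPM, the deposited value per length of the gene's exons. By mean TPM, Fth1 ranked 6th and Ftl1 ranked 7th of all 35478 genes, with 5420 ± 138 TPM and 5711 ± 339 TPM in the Prdm16fl/fl mice (SD, n = 2). Cp followed at 109 ± 6.04 TPM and Trf at 77.6 ± 2.71 TPM (SD, n = 2). Tfrc (55.4 ± 4.05 TPM), Slc40a1 (54.2 ± 5.39 TPM) and Hmox1 (53.3 ± 1.19 TPM) did not differ from each other beyond their spread in these mice (SD, n = 2). Ireb2 lay at 39.5 ± 4.10 TPM, Slc11a2 at 27.7 ± 3.10 TPM and Hpx at 0.923 ± 0.122 TPM (SD, n = 2). In the Ksp-Cre/Prdm16fl/fl mice the order changed in the middle, with Hmox1 at 137 ± 82.7 TPM and Slc40a1 at 96.0 ± 21.6 TPM above Tfrc at 51.1 ± 12.3 TPM (SD, n = 3). The spread of Hmox1 in these 3 mice reached down past the level of Slc40a1.

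**Figure D1:**
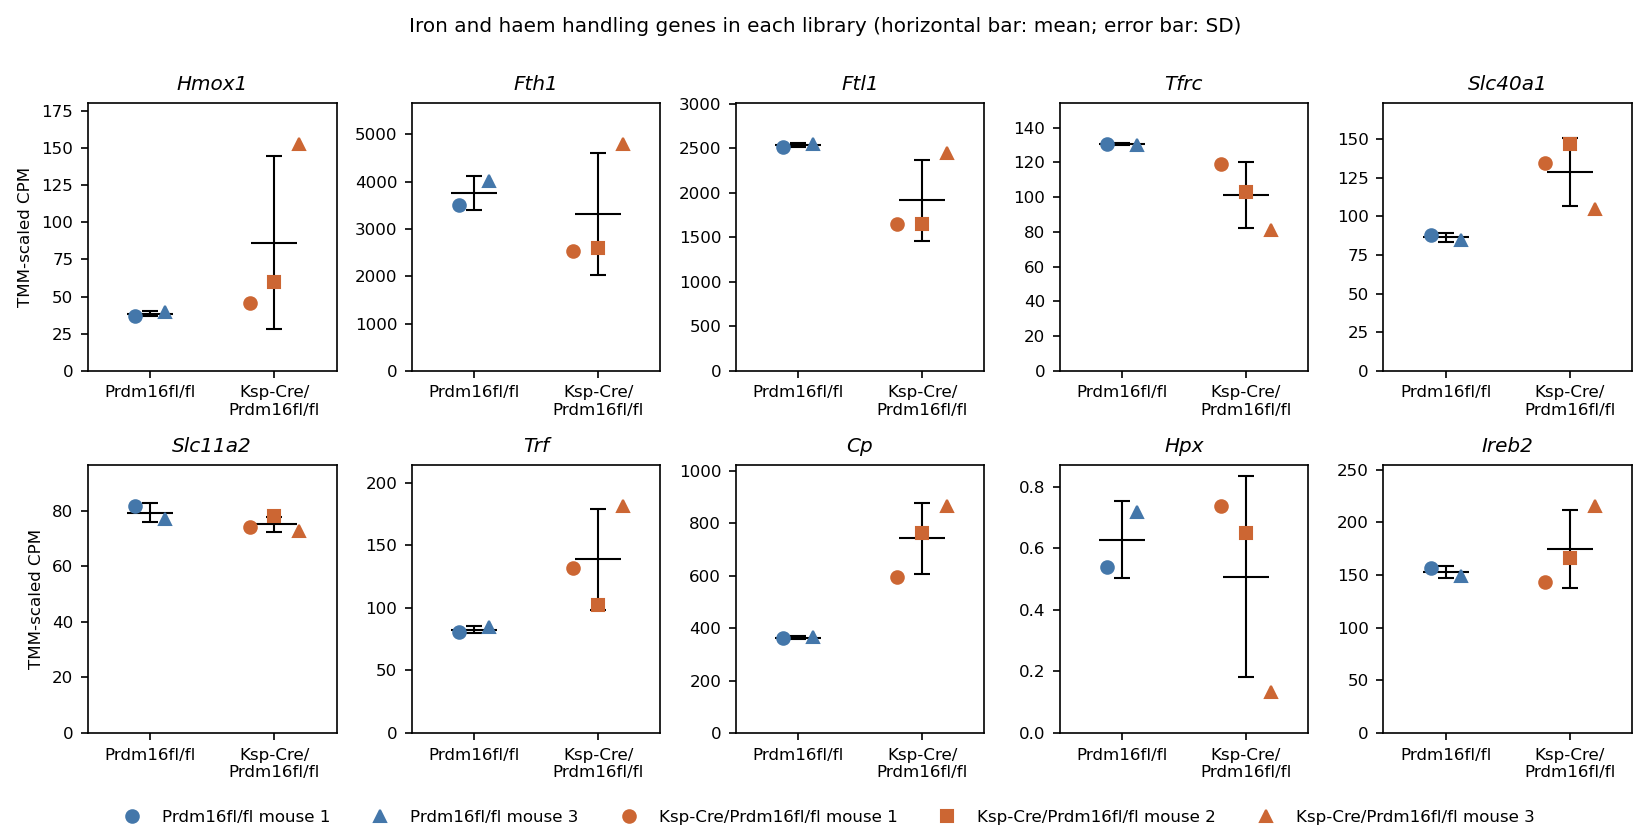
Level of each of the 10 genes in the 5 kidneys, as TMM-scaled CPM on axes that start at 0. Each point is 1 mouse, blue for Prdm16fl/fl and orange for Ksp-Cre/Prdm16fl/fl, the horizontal bar is the group mean and the error bar the SD. Cp, Trf, Slc40a1 and Hmox1 lay above both Prdm16fl/fl mice in all 3 Ksp-Cre/Prdm16fl/fl mice, and Hmox1, Fth1 and Ftl1 were far higher in mouse 3 than in mice 1 and 2.

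None of the 10 genes passed an adjusted p under 0.05 in edgeR's quasi-likelihood test with Benjamini-Hochberg adjustment over all 16394 genes tested, where 160 genes (0.976%) passed. At an unadjusted p under 0.05, 3 of the 10 genes were higher (Cp, Slc40a1 and Trf) and 0 were lower, against 7.64% and 11.2% of all genes. DESeq2 called 1 of the 10, Cp, as higher, where it called 1.87% of all genes with an adjusted p in that direction, and limma on log2(FPKM + 1) called 0. The groups did not overlap for 6 of the 10 genes, 4 higher (Hmox1, Slc40a1, Trf and Cp) and 2 lower (Ftl1 and Tfrc), and such a separation was seen for 41.6% of all genes, 20.3% as higher and 21.3% as lower. The median log2 fold change of the 10 genes was 0.057, beside 0.038 over all genes tested. Of all genes tested, 17 were called higher (0.104%) and 143 lower (0.872%), so 10.6% of called genes were higher, a share that was 27.5% with scaling by library size alone.

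Cp, listed on chromosome 3 from 20011097 to 20063914 in the coordinates of the files, had the smallest p-value of the 10. Ceruloplasmin was counted at 361 and 368 CPM in the Prdm16fl/fl mice and at 596, 763 and 866 CPM in the Ksp-Cre/Prdm16fl/fl mice. Every Ksp-Cre/Prdm16fl/fl kidney was well above both Prdm16fl/fl kidneys, which lay close together. The means were 364 ± 4.89 CPM (SD, n = 2) and 742 ± 136 CPM (SD, n = 3), a log2 fold change of 1.03 ± 0.19 (SE, adjusted p = 0.0684 from edgeR), or 2.04-fold. The 95% confidence interval ran from 0.55 to 1.501, and leaving out each mouse in turn moved the value between 0.90 and 1.163. Cp was called by DESeq2 (adjusted p = 7.9e-05), by edgeR with no filter beyond 1 count in total (adjusted p = 0.0354, where 0.246% of genes passed as higher) and by edgeR without Ksp-Cre/Prdm16fl/fl mouse 3 (log2 fold change 0.90, adjusted p = 0.0034), and over all alternatives the adjusted p reached 0.540.

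Slc40a1 (chromosome 1, 45947230 to 45965690), which encodes the iron exporter ferroportin, was counted at 88.2 and 84.5 CPM in the Prdm16fl/fl mice. The Ksp-Cre/Prdm16fl/fl mice had 134, 147 and 104 CPM, all higher, with mouse 3 nearest to the Prdm16fl/fl level. The log2 fold change was 0.58 ± 0.17 (SE, 95% confidence interval 0.16 to 0.99, adjusted p = 0.156), or 1.49-fold. Without mouse 3 it was 0.71 (adjusted p = 0.0027), and in 14 of 15 alternatives the adjusted p stayed above 0.05. The 5′ UTR element printed above belongs to this messenger, and the level of the ferroportin protein was not measured here.

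Trf (chromosome 9, 103086075 to 103107485) encodes transferrin, the iron carrier of plasma made mainly in the liver. It was counted at 80.8 and 84.7 CPM in the Prdm16fl/fl mice and at 132, 102 and 182 CPM in the Ksp-Cre/Prdm16fl/fl mice. All 3 were higher, and they differed from each other by more than mouse 2 differed from the Prdm16fl/fl mice. The log2 fold change was 0.75 ± 0.25 (SE, 95% confidence interval 0.15 to 1.34, adjusted p = 0.189), or 1.68-fold, and without mouse 3 it was 0.51 (adjusted p = 0.0324). Cp and Trf are also liver genes, so hepatocyte markers were read beside them. Alb was at 0.53 to 2.15 CPM, Apoa1 at 0.067 to 0.93 CPM and Ahsg at 0 to 0.13 CPM over the 5 libraries, at or near 0, and Alb was lower in all 3 Ksp-Cre/Prdm16fl/fl mice than in both Prdm16fl/fl mice. The 9 markers of the list summed to 226 and 299 CPM in the Prdm16fl/fl mice and to 139, 161 and 320 CPM in the Ksp-Cre/Prdm16fl/fl mice, most of it from Apob, Ttr, Fgb and Serpina1a. Of these, Fgb, a fibrinogen chain, was higher in all 3 Ksp-Cre/Prdm16fl/fl mice (28.2, 28.1 and 172 CPM against 7.55 and 8.18 CPM), whereas Apob and Ttr were lower in all 3.

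Hmox1 (chromosome 8, 75820246 to 75827221), the inducible enzyme of haem breakdown, had the largest fold change of the 10 and the widest spread among the well-counted genes. It was counted at 37.1 and 39.7 CPM in the Prdm16fl/fl mice and at 45.9, 59.8 and 153 CPM in the Ksp-Cre/Prdm16fl/fl mice. All 3 were higher than both Prdm16fl/fl mice, but mouse 3 alone was 2.89 times the mean of mice 1 and 2, which together were 1.38 times the Prdm16fl/fl mean. The means were 38.4 ± 1.79 CPM (SD, n = 2) and 86.1 ± 58.1 CPM (SD, n = 3). The log2 fold change was 1.163 ± 0.52 (SE) with a 95% confidence interval from -0.11 to 2.43 (adjusted p = 0.302), a 2.24-fold difference within the spread between mice. Without mouse 3 it was 0.46 (95% confidence interval 0.16 to 0.77, adjusted p = 0.0454), a smaller value with a narrower interval.

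Hpx (chromosome 7, 105240818 to 105249323) encodes hemopexin, which is made mainly by the liver, and it was barely counted in the kidney. The libraries held 8 and 10 counts in the Prdm16fl/fl mice and 13, 11 and 2 counts in the Ksp-Cre/Prdm16fl/fl mice. The groups overlapped, and the lowest value was that of mouse 3. Its log2 fold change of -0.28 ± 0.68 (SE, adjusted p = 0.857) had a 95% confidence interval from -1.92 to 1.37, so a difference was not detectable at this depth, and the sign turned without mouse 3 (0.15).

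The storage genes Fth1 and Ftl1 were lower in mice 1 and 2 of the Ksp-Cre/Prdm16fl/fl group than in both Prdm16fl/fl mice, whereas in mouse 3 Fth1 was higher and Ftl1 only just lower. Fth1 (chromosome 19, 9957964 to 9962475), the heavy chain, was counted at 3504 and 4005 CPM in the Prdm16fl/fl mice. In the Ksp-Cre/Prdm16fl/fl mice it was counted at 2538, 2587 and 4800.1 CPM, so that mice 1 and 2 lay below both Prdm16fl/fl mice and mouse 3 above both. The log2 fold change was -0.18 ± 0.32 (SE, 95% confidence interval -0.97 to 0.61, adjusted p = 0.798), and the 2 group means were closer than the SD within the Ksp-Cre/Prdm16fl/fl group. Measured as TPM, the mean of Fth1 was 5420 ± 138 (SD, n = 2) in the Prdm16fl/fl mice and 5563 ± 1762 (SD, n = 3) in the Ksp-Cre/Prdm16fl/fl mice, the opposite order, again within the spread. Without mouse 3 the log2 fold change was -0.55 (adjusted p = 0.0248).

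Ftl1 (chromosome 7, 45107368 to 45109310), the light chain, was counted at 2515 and 2549 CPM in the Prdm16fl/fl mice and at 1646, 1653 and 2442 CPM in the Ksp-Cre/Prdm16fl/fl mice. All 3 were lower, mouse 3 only just, and measured as TPM mouse 3 (6020.1) lay above both Prdm16fl/fl mice (5951 and 5471). The log2 fold change was -0.40 ± 0.23 (SE, 95% confidence interval -0.95 to 0.15, adjusted p = 0.391). Without mouse 3 it was -0.61 (adjusted p = 0.0105), and mice 1 and 2 together stood at 0.651 times the Prdm16fl/fl mean for Ftl1 and at 0.682 times for Fth1. The tables list 8 genes with the name of a ferritin copy or relative, Ftl1-ps2 and genes of the Fthl17 family. All 8 had 0 counts in every library. They were found by name, so copies under other names were not examined. Whether reads of Fth1 and Ftl1 were lost to or gained from such copies was not tested.

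Both ferritin chains were lowest in Ksp-Cre/Prdm16fl/fl mice 1 and 2. Together they took 0.587% and 0.611% of all counted reads in the Prdm16fl/fl mice and 0.449%, 0.446% and 0.703% in the Ksp-Cre/Prdm16fl/fl mice. The ratio of Fth1 to Ftl1 TPM within a library, which no scaling between libraries can change, was 0.894 and 1.01 in the Prdm16fl/fl mice. It was 0.990, 1.004 and 1.26 in the Ksp-Cre/Prdm16fl/fl mice, with mouse 3 alone above the rest. On the log2 scale the means differed by 0.18 (two-sided exact permutation test, p = 0.6), where the smallest p that the 10 splits of 2 against 3 mice allow is 0.2.

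Tfrc (chromosome 16, 32427714 to 32451612), the transferrin receptor, was counted at 131 and 130 CPM in the Prdm16fl/fl mice. The Ksp-Cre/Prdm16fl/fl mice had 119, 103 and 81.3 CPM, all lower, with mouse 3 lowest. The log2 fold change was -0.37 ± 0.17 (SE, 95% confidence interval -0.79 to 0.06, adjusted p = 0.325), or 0.776-fold. With scaling by library size alone the groups of Tfrc overlapped, as they did as TPM, where mouse 1 (62.0) lay above both Prdm16fl/fl mice (58.3 and 52.5). The ratio of Tfrc to Fth1 TPM within a library had means of -6.61 ± 0.14 (SD, n = 2) and -6.75 ± 0.79 (SD, n = 3) on the log2 scale, a difference of -0.14 (two-sided exact permutation test, p = 1). In the 3 Ksp-Cre/Prdm16fl/fl mice it was -6.18, -6.42 and -7.65, so that mice 1 and 2 lay above both Prdm16fl/fl mice (-6.51 and -6.71) and mouse 3 below both. Without mouse 3 the difference was 0.31, of the opposite sign.

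Slc11a2 and Ireb2 both overlapped between the genotypes, with small differences. Slc11a2 (chromosome 15, 100285779 to 100322090), the endosomal iron transporter, was counted at 81.8 and 77.0 CPM in the Prdm16fl/fl mice and at 74.3, 78.3 and 72.8 CPM in the Ksp-Cre/Prdm16fl/fl mice. The groups overlapped, and the log2 fold change of -0.08 ± 0.10 (SE, adjusted p = 0.721) had a 95% confidence interval from -0.34 to 0.17, with a sign that turned with scaling by library size (0.03). Ireb2 (chromosome 9, 54769942 to 54819818), the sensor, was counted at 157 and 149 CPM in the Prdm16fl/fl mice and at 143, 166 and 216 CPM in the Ksp-Cre/Prdm16fl/fl mice. Mouse 1 lay below and mice 2 and 3 above both Prdm16fl/fl mice, and the log2 fold change was 0.19 ± 0.19 (SE, 95% confidence interval -0.27 to 0.66, adjusted p = 0.622). As TMM-scaled CPM, Ireb2 thus overlapped between the groups, as did Fth1. The other genes with a match in the hairpin search, Ftl1, Tfrc and Slc40a1, did not. Measured as TPM, Ftl1 and Tfrc overlapped as well.

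**Figure D2:**
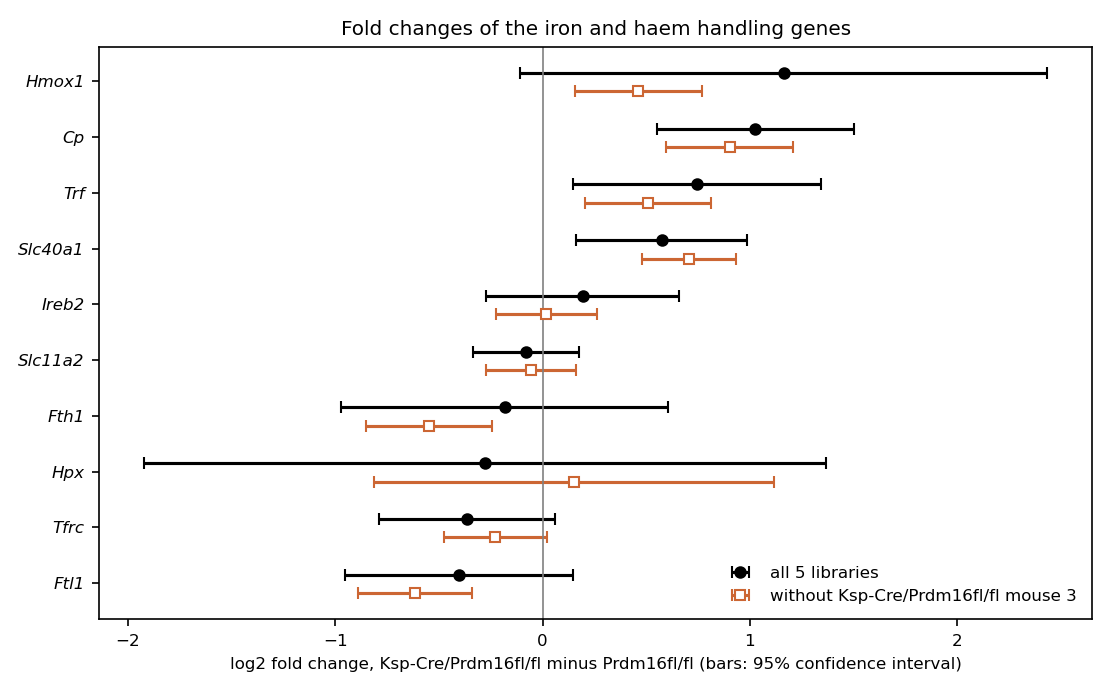
Log2 fold change of each of the 10 genes (x axis) with its 95% confidence interval from edgeR, for all 5 libraries (filled circles) and without Ksp-Cre/Prdm16fl/fl mouse 3 (open squares). The intervals of Cp, Trf and Slc40a1 lay above 0 in both fits, those of Fth1 and Ftl1 lay below 0 only without mouse 3, and Hmox1 moved from 1.163 to 0.46.

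Without Ksp-Cre/Prdm16fl/fl mouse 3, 6 of the 10 genes passed an adjusted p under 0.05 in edgeR, 4 higher (Hmox1, Slc40a1, Trf and Cp) and 2 lower (Fth1 and Ftl1). That fit called 7.82% of all genes as higher and 11.0% as lower, a far larger share than the fit of all mice. The choice of mouse 3 came from these data, so these calls are a description and not a separate test. In each fit that left out another mouse, 0 of the 10 genes and 0 genes of the whole table were called, at unadjusted p under 0.05 for 1330 to 2514 genes. The separation of groups without mouse 3 held for 4 of the 10 genes as higher and 3 as lower, where 32.8% and 30.8% of all genes were so separated.

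Markers of cell types were also read in each library, and mouse 3 did not stand apart in every list. Thick ascending limb and distal tubule markers summed to 5693 and 5878 CPM in the Prdm16fl/fl mice, to 4591 and 3930 CPM in mice 1 and 2 of the Ksp-Cre/Prdm16fl/fl group and to 2138 CPM in mouse 3. Summed proximal tubule markers were lower in all 3 Ksp-Cre/Prdm16fl/fl mice (8084, 10149 and 12346 CPM) than in both Prdm16fl/fl mice (24292 and 30553 CPM). The largest part of each sum was Kap, at 2996, 4121 and 7403 CPM against 12507 and 18227 CPM. Apart from Kap, Slc27a2, Slc22a6 and Hnf4a, each marker of this list was lowest in mouse 3, as with Slc34a1 at 1041, 1039 and 483 CPM. Tubular injury markers were higher in all 3 (32557, 33091 and 38429 CPM against 15257 and 15841 CPM), with Lcn2, which carries iron-laden siderophores, at 272, 204 and 658 CPM against 110 and 94.0 CPM. The markers of fibroblasts and mural cells summed to 446 and 656 CPM against 982, 945 and 667 CPM, and those of the collecting duct to 532 and 454 CPM against 409, 233 and 320.02 CPM. Over the 5 mice the endothelial markers summed to 326 to 520 CPM, the neutrophil markers to 16.9 to 32.6 CPM and the adipocyte markers to 30.5 to 62.6 CPM. In bulk tissue, fewer cells of a type and less RNA per cell cannot be told apart, and the part of these cell types in the values of the 10 genes was not tested.

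Macrophages recycle iron through Hmox1 and ferroportin, so their markers were read beside both genes. The 14 markers summed to 1136 and 1561 CPM in the Prdm16fl/fl mice and to 1792, 1676 and 1107 CPM in the Ksp-Cre/Prdm16fl/fl mice. Adgre1 was at 36.5 and 40.6 CPM against 51.7, 51.0 and 12.3 CPM, Lyz2 at 464 and 716 CPM against 772, 699 and 229 CPM, and Fcgr1 at 10.9 and 14.8 CPM against 25.0, 20.8 and 7.26 CPM. Csf1r lay at 102 and 113 CPM against 149, 134 and 103 CPM, Mrc1 at 44.0 and 65.2 CPM against 82.5, 86.1 and 48.8 CPM, and Mertk at 85.8 and 78.4 CPM against 51.0, 63.1 and 96.0 CPM. Of the complement genes of macrophages, C1qa was at 105 and 148 CPM against 179, 170 and 134 CPM, with C1qb at 113 to 177 CPM and C1qc at 86.9 to 141 CPM over the 5 mice. Cd68 stayed within 21.2 to 30.5 CPM, Itgam was higher in all 3 Ksp-Cre/Prdm16fl/fl mice (42.6, 40.2 and 56.3 CPM against 22.2 and 25.7 CPM), as was Cd14 (92.2, 106 and 176 CPM against 43.7 and 74.0 CPM), and Vsig4 and Timd4 were at or near 0. In mouse 3 the markers went both ways, with Adgre1, Lyz2 and Fcgr1 the lowest and Cd14, Itgam and Mertk the highest of the 5 libraries, and the part of macrophages in the values of Hmox1 and Slc40a1 was not tested.

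Red cell RNA was also read, because red cells are the main source of haem. Haemoglobin genes, 4 in number, had a summed level of 6.27 and 9.69 CPM in the Prdm16fl/fl mice and of 147, 146 and 38.6 CPM in the Ksp-Cre/Prdm16fl/fl mice, with Hba-a1 at 2.16 and 2.73 CPM against 49.8, 47.7 and 14.1 CPM. Hbb-bs was at 3.91 and 6.17 CPM against 82.1, 83.7 and 21.1 CPM, while Hba-a2 and Hbb-bt reached at most 4.43 and 11.6 CPM. Alas2, the erythroid enzyme that starts haem synthesis, was at 0.40 and 1.08 CPM against 3.75, 4.19 and 1.87 CPM. Epb42 was at 2.51 to 7.38 CPM and Ermap at 0.43 to 1.27 CPM over the 5 mice, and Slc4a1, also a collecting duct gene, was at 40.6 and 29.7 CPM against 18.7, 11.5 and 1.13 CPM. Ahsp and Rhag stayed under 1 CPM in every library, at or near 0. None of the erythroid genes passed the adjusted p in edgeR (5 of 8 tested were higher at an unadjusted p under 0.05), whereas DESeq2 called 5 as higher, the 4 haemoglobin genes and Alas2, with Hba-a1 at a log2 fold change of 3.93 (adjusted p = 3.2e-11). Without mouse 3 edgeR called 6 of the 8 as higher and 1 as lower, where 7.82% and 11.0% of all genes were called. Their part in the values of Hmox1, Tfrc and Slc40a1 was not tested.

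**Figure D3:**
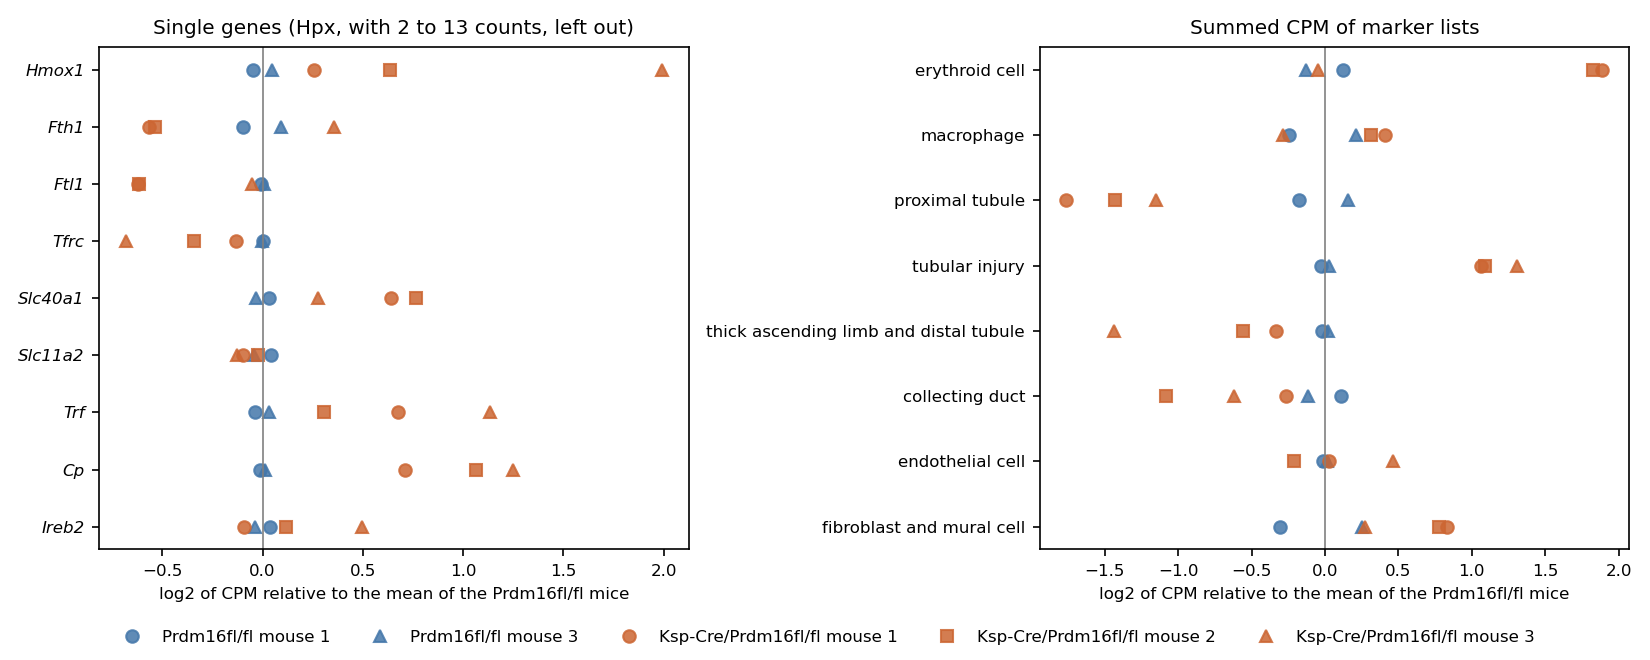
Level in each library relative to the mean of the Prdm16fl/fl mice, on a log2 axis, for 9 of the 10 genes (left) and for the summed CPM of marker lists (right). Each point is 1 mouse. Hmox1, Fth1, Trf, Cp and Ireb2 were highest, and Tfrc and the thick ascending limb and distal tubule markers lowest, in Ksp-Cre/Prdm16fl/fl mouse 3.

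The other genes of the pathway were taken from 7 lists of 112 listed genes, of which 107 were tested. In edgeR 4 of the 107 were called, all lower, against 0.872% of all genes as lower, and 0 were higher. The 4 were Hebp1, Bola3, Cisd1 and Cisd3, and only Cisd3 was also past a log2 fold change of 1 in size, as 103 genes (0.628%) were as lower over the whole table. DESeq2 called 4 of the 107 as higher and 10 as lower (1.87% and 5.33% of all genes), and without Ksp-Cre/Prdm16fl/fl mouse 3 edgeR called 7 as higher and 27 as lower, in a fit that called 7.82% and 11.0% of all genes. The 4 calls in edgeR were narrow: with library size scaling, with limma, and with any mouse but Ksp-Cre/Prdm16fl/fl mouse 3 left out, 0 of the 4 passed, at adjusted p of up to 0.521, while each of them kept its direction in all 15 alternatives.

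The cytosolic iron-sulphur cluster genes and cluster carriers held 2 of the 4. Cisd3, a small iron-sulphur protein of the mitochondrial matrix, was counted at 70.8 and 95.7 CPM in the Prdm16fl/fl mice and fell to 38.9, 34.3 and 29.8 CPM in the Ksp-Cre/Prdm16fl/fl mice. Its log2 fold change was -1.28 ± 0.18 (SE, adjusted p = 0.0443). Cisd1, or mitoNEET, its relative in the outer mitochondrial membrane, was at 179 and 207 CPM against 112, 91.6 and 94.95 CPM, a log2 fold change of -0.96 ± 0.14 (SE, adjusted p = 0.0484). In both genes the 3 Ksp-Cre/Prdm16fl/fl mice, mouse 3 included, lay closer to each other than to either Prdm16fl/fl mouse. Of the 14 genes of this list, 13 had a log2 fold change below 0 and 10 were lower without overlap. Over all genes, 7537 of 16394 were below 0 and 21.3% were lower without overlap. The median was -0.28 beside 0.038 over all genes. The largest other differences without overlap were those of Ciao2b, of the targeting complex that hands clusters to proteins (-0.76, adjusted p = 0.141), and Bola2 (-0.52, adjusted p = 0.259), and the smallest were Glrx3 (-0.13) and Nubp2 (-0.21).

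Genes of mitochondrial iron import and iron-sulphur cluster assembly held the most genes that were lower without overlap among the 7 lists. Of 23 genes tested, 20 had a log2 fold change below 0, 17 were lower in all 3 Ksp-Cre/Prdm16fl/fl mice than in both Prdm16fl/fl mice, and 1 (Fdx2, at only 0.54 to 0.93 CPM and named after its values were seen) was higher in all 3, where 21.3% and 20.3% of all genes were so separated. The median was -0.41. Bola3, which helps to deliver clusters to lipoic acid synthesis and respiratory enzymes, was the one called gene, at 64.2 and 64.8 CPM against 36.5, 32.3 and 28.9 CPM, with a log2 fold change of -0.99 ± 0.13 (SE, adjusted p = 0.0412). The 3′ UTR of Bola3 also held a match to the hairpin, as 0.59% of protein-coding genes did. The acyl carrier protein Ndufab1, which is part of the assembly complex and of complex I, was at 160 and 179 CPM against 105, 89.8 and 86.4 CPM (log2 fold change -0.85, adjusted p = 0.0523). Nfu1, which was lower without overlap, had a small difference (-0.12), whose sign turned with a length and GC correction (0.01). DESeq2 called 6 genes of this list as lower, where it called 5.33% of all genes as lower. Without mouse 3 edgeR called 12 as lower, where 11.0% of all genes were called lower.

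**Figure D4:**
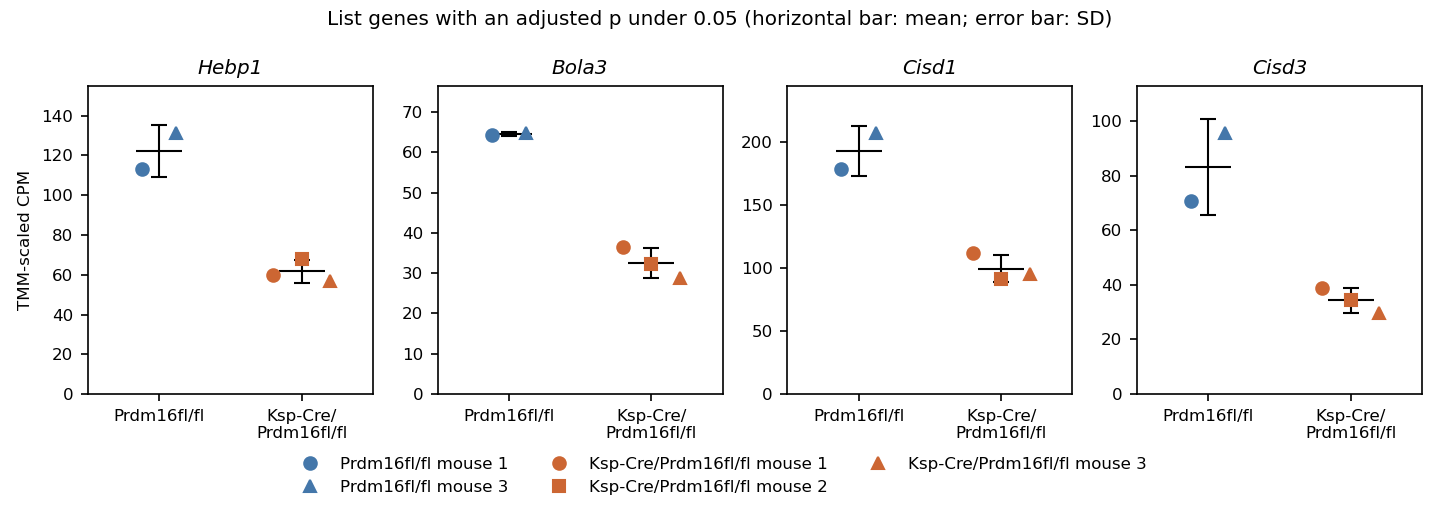
Level of the 4 called list genes in the 5 kidneys, as TMM-scaled CPM on axes that start at 0, with 1 point per mouse, the group mean (horizontal bar) and the SD (error bar). In each gene all 3 Ksp-Cre/Prdm16fl/fl mice, mouse 3 among them, lay well below both Prdm16fl/fl mice, as with Cisd3 at 29.8 to 38.9 CPM against 70.8 and 95.7 CPM.

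No gene of haem synthesis was called in edgeR. Of the 12 genes, 10 had a log2 fold change below 0 and 6 were lower without overlap, as 21.3% of all genes were. The median was -0.21, beside 0.038 over all genes, of which 7537 of 16394 were below 0. Uros, which closes the porphyrin ring, was at 30.2 and 28.8 CPM against 20.5, 20.7 and 5.53 CPM (log2 fold change -0.92, adjusted p = 0.388). Alad, the step after Alas1, was at 93.0 and 102 CPM against 68.1, 74.1 and 48.2 CPM (log2 fold change -0.62, adjusted p = 0.173). Ppox (-0.30) differed less. DESeq2 called 0 genes of this list. In edgeR 4 were lower at an unadjusted p under 0.05, as 11.2% of all genes were. Without mouse 3 edgeR called 5, all lower, beside 11.0% of all genes.

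Genes of haem scavenging, transport and breakdown were split evenly, with 9 of 18 above and 9 below 0. Hebp1, a small haem-binding protein, fell from 113 and 131 CPM to 60.0, 67.9 and 57.04 CPM, a log2 fold change of -0.99 ± 0.13 (SE, adjusted p = 0.0412). Lrp1, the receptor for haem bound to hemopexin, was at 61.3 and 60.7 CPM against 95.4, 91.4 and 117 CPM (log2 fold change 0.73, adjusted p = 0.0732), and DESeq2 called it (adjusted p = 0.0040). Hp, haptoglobin, which binds free haemoglobin, was at 2.16 and 2.15 CPM against 3.24, 4.08 and 8.40 CPM (log2 fold change 1.27, adjusted p = 0.232). Pgrmc1, a haem-binding membrane protein, was lower in all 3 mice (-0.46, adjusted p = 0.131), as was Slc46a1 (-0.34, adjusted p = 0.411).

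None of the genes of iron uptake, of storage and export or of iron sensing was called in edgeR. At an unadjusted p under 0.05, 4 of 16 uptake genes (3 higher, 1 lower), 0 of 7 storage and export genes and 3 of 17 sensing genes (all higher) differed. Over all genes, 7.64% were higher and 11.2% lower at that level. DESeq2 called 3 uptake genes, all higher, and 0 of both other lists, where it called 1.87% of all genes as higher and 5.33% as lower. Among the uptake genes with separated groups, Lcn2 had the largest difference (log2 fold change 1.89, adjusted p = 0.138), followed by the iron reductase Cybrd1 (1.14, adjusted p = 0.3005), which was at only 1.21 to 5.46 CPM. The endocytic receptors of the proximal tubule were lower in all 3 mice, with Lrp2, megalin, at -0.87 (adjusted p = 0.245) and Cubn, cubilin, at -0.78 (adjusted p = 0.345). Of the storage helpers, Timd2, a receptor for ferritin (0.36), and the iron chaperone Pcbp2 (0.23) were higher and the chaperone Pcbp1 (-0.21) was lower without overlap, and Tmem199 (-0.11) was lower with a sign that turned with a length and GC correction (0.10). Of the sensing genes, Hfe (0.62, adjusted p = 0.327) and Bmp6 (0.60, adjusted p = 0.239), which promote hepcidin expression, were higher in all 3 mice, and Aco1, the partner of Ireb2, was lower (-0.36, adjusted p = 0.315), as was Egln1 (-0.12). Tmprss6 and Smad7, which restrain hepcidin and were named after their values were seen, were also higher in all 3 mice, Tmprss6 at only 0.61 and 0.72 CPM against 3.58, 2.95 and 1.07 CPM (log2 fold change 1.93, adjusted p = 0.172) and Smad7 with a log2 fold change of 0.39 (adjusted p = 0.355). Hamp, hepcidin itself, was at 0 to 0.13 CPM.

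**Figure D5:**
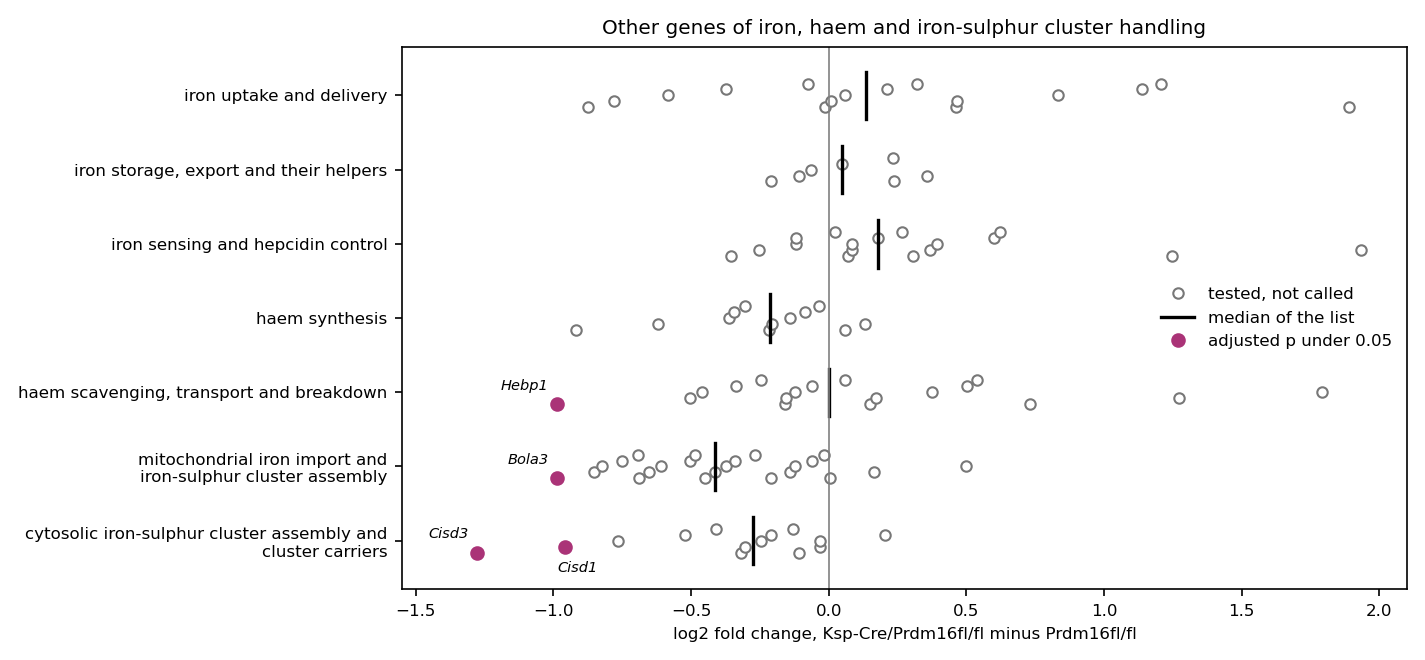
Log2 fold change (x axis) of each tested gene of the 7 lists (rows), with filled points for an adjusted p under 0.05 in edgeR and a black line at the median of each list. The 4 called genes lay at -1.28 to -0.96, and the medians of the 7 lists ran from -0.41 for mitochondrial iron import and cluster assembly to 0.18 for iron sensing and hepcidin control.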

How the data were processed

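The data are RNA-seq libraries of 5 mouse kidneys. Each mouse gave 1 library, and the genotype in the sample labels set its group. Per the methods, mRNA was selected with oligo(dT) and sequenced as paired-end reads from the kidney cortex, whereas the labels name the kidney. Reads with adapters or of low quality were removed. The submitters' processing notes name CASAVA, featureCounts 2.0.1, DESeq2 1.16.1 and the build hg38, a human build, so positions of genes are given as the files give them, without a build, and whether counting used the strand is not given in the sources used here. For each gene the authors deposited the raw count, and the deposited TPM and FPKM scale that count by exon length and library total. Broken lines of 5 genes were rejoined.

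Counts of the 16394 genes kept by filterByExpr were scaled by TMM and tested without covariates in edgeR 4.0.16 (R 4.3.3), with Benjamini-Hochberg adjustment over all genes tested. A gene was called at an adjusted p under 0.05. The test was checked on simulated counts with 200 changed genes. At a true log2 fold change of 1.5, edgeR called 56.5% of the changed genes and DESeq2 75.3%. At 3.0 they called 94.6% and 95.7%, and of unchanged genes they called 0.0876% and 0.272%. Smaller changes, such as the 1.163 of Hmox1, were not simulated, so how often the test calls them is not known. Replicates were separate mice, and no 2 libraries were duplicates. Ratios within a library were tested with an exact permutation test over the mice (scipy 1.17.1). Alternatives were DESeq2 1.42.0, its size factors in edgeR, scaling by library size or upper quartile, 2 other filters, fits without each mouse in turn, a fit with mouse numbers as a block, limma 3.58.1 on log2 FPKM after adding 1 or 0.1 (minimum FPKM 1 in 2 libraries), and removal of a length and GC trend (loess, span 0.3). With a Prdm16fl/fl mouse left out, the lone other mouse is assumed to vary like the Ksp-Cre/Prdm16fl/fl mice.

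The 10 genes, the 7 lists and the markers were chosen with earlier results of these data known, and a list is described by counts and its median, with no set test. Of each list, called genes and the 2 largest and 2 smallest fold changes among other genes with separated groups and a mean log2 CPM of at least 1 are named. One gene of the lists, Ind1, was not found under that name in the tables. A few genes of the lists that this rule names, or that belong to the markers, are not reported here. Hairpins were searched in GENCODE M21 transcripts, and figures were drawn with matplotlib 3.10.9.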

Additional observations from a re-analysis of the deposited data

How the results depend on the processing

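Under 15 alternatives to the fit of all 5 mice, each of the 10 genes, where fitted, kept its log2 fold change sign except Slc11a2 and Hpx. Slc11a2 turned to 0.032 with library size scaling, 0.031 with limma on log2(FPKM + 0.1) and 0.029 with limma on log2(FPKM + 1). Hpx turned without Ksp-Cre/Prdm16fl/fl mouse 3, and it was not fitted with limma or with at least 10 counts in every library. Library size scaling moved the median of all genes from 0.038 to 0.15. Leaving out each mouse gave ranges of 0.46 to 1.47 for Hmox1, -0.55 to -0.02 for Fth1, -0.61 to -0.31 for Ftl1, 0.47 to 0.71 for Slc40a1, 0.51 to 0.92 for Trf, 0.90 to 1.163 for Cp, -0.64 to 0.15 for Hpx and -0.42 to 0.31 for the log2 ratio of Tfrc to Fth1. Adding Ftl1-ps2 and the Fthl17 genes to the ferritin genes changed neither ratio, since these had 0 counts. Cp passed with DESeq2 (1.03) and with no filter beyond 1 count in total (1.03), so that 1 member was called higher in both. Separated members that were lower numbered 1 with library size scaling and with both limma fits. The medians of the members in the limma fits were 0.28 and 0.27 without Hpx, so they cover fewer genes than the 0.057 of the main fit. Over the whole table, calls numbered 303 higher and 863 lower with DESeq2, 63 and 408 with no filter, 6 and 41 with the length and GC trend removed, and 37, 34 and 51 lower with library size scaling and limma with the smaller and larger pseudocount. Leaving out each mouse gave 0 to 1266 higher and 0 to 1787 lower, 0 to 4 and 0 to 2 of the members, and 0 to 7 and 0 to 27 of the genes of all lists, each upper end without Ksp-Cre/Prdm16fl/fl mouse 3. By list these upper ends were 4 higher and 1 lower for uptake, 2 and 1 for sensing, 5 lower for haem synthesis, 1 higher and 3 lower for haem scavenging, 12 lower for mitochondrial and 5 lower for cytosolic cluster genes. Of the list genes, DESeq2 called 4 higher (3 uptake, 1 haem scavenging) and 10 lower (6 mitochondrial, 2 haem scavenging), library size scaling and both limma fits called 0 in every list, upper quartile scaling called 1 lower (0 mitochondrial, 0 cytosolic), the length and GC correction called 1 lower (0 haem scavenging, 0 cytosolic), and 2 mitochondrial genes were lower with no filter and with at least 10 counts in every library. Among the named list genes, Nfu1 (0.0087) and Tmem199 (0.096) turned sign with the length and GC correction, and Tmem199 also with library size scaling (0.00033). With the mouse number as a replicate block, 0 genes of the table, lists and members were called, higher or lower. The only mouse numbers found in both groups are 1 and 3. Deviations from the group means of same-numbered mice had correlations of 0.0010 and -0.022. With 2 mice in the Prdm16fl/fl group, their deviations are mirror images of each other. The correlations therefore cannot show whether same-numbered mice shared a litter or batch. The cause of these changes was not tested, beyond the smaller number of mice where one was left out.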
